A study of Mus musculus with 28 samples.

Results

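The genes described here encode the proteins of the cytosolic ribosome. They were chosen by symbol alone: *Rpsa*, *Rplp0*, *Rplp1*, *Rplp2*, and *Rpl* or *Rps* followed by a number with at most a short suffix, without the S6 kinases and without pseudogenes. The platform annotation gave 60 such genes, 35 of the large and 25 of the small subunit, with 89 probes out of 45281. After a filter on dim probes, which asked for detection on at least 3 arrays, 59 genes with 86 probes remained among 13373 genes. The gene that was not kept was *Rpl3l*, a muscle paralogue, whose probe was detected on 0 arrays. Of the 89 probes 76 were detected on all 28 arrays, so the filter acted on few of them.

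RNA had come from cells sorted by FACS out of mouse vertebral columns at E12.5, each replicate from 2 columns, on a hybrid 129Sv/C57BL/6/129X1/129S1 background. After a single round of amplification, 28 Illumina MouseWG-6 arrays on 5 chips were hybridised. Of the EGFP(+) groups, *Pax1 WT:+/EGFP* (5 replicates) carries EGFP joined behind a functional *Pax1*. *Pax1+/-* (5 replicates) and *Pax1-/-* (5 replicates) carry EGFP in a disrupted *Pax1*, on 1 or both alleles. *Pax1-/-Pax9+/-* (3 replicates) and *Pax1-/-Pax9-/-* (3 replicates), called compound mutants below, carry in addition EGFP in a disrupted *Pax9*. The EGFP(-) group (3 replicates) holds the cells without fluorescence, and its labels give no genotype. EGFP was therefore driven by the *Pax1* locus in all EGFP(+) groups and also by the *Pax9* locus in the compound mutants, so that the sorted cells are those with an active locus and not 1 cell type.

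A ribosome consists of a small subunit, which reads the mRNA, and a large subunit, which joins the amino acids, each built of RNA and many proteins. Many mRNAs of ribosomal proteins start with a run of pyrimidines, the TOP motif, through which growth signalling regulates their translation. Loss of single ribosomal proteins is known for selective phenotypes, among them anaemia in humans and short or kinked tails and altered vertebrae in mice, which is why these genes are of interest in a vertebral column.

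Sequence near the annotated start of 5 members is shown. The comparisons turn on *Rpl35* and *Rpl24*, and *Rpl24*, *Rpl38* and *Rps7* are known from mice with tail or vertebral defects. *Rps15a* was the 1 member called between *Pax1-/-* and *Pax1 WT:+/EGFP* cells. Each is 30 bases from RefSeq on GRCm38.p6, written 5′ to 3′ along the gene, and the capitals mark the longest run of C and T within 50 bases of the annotated start.
*Rpl35*, chr2:39005115-39005144, minus strand: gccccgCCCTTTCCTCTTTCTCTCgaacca
*Rpl24*, chr16:55966227-55966256, plus strand: acctcaaacccaCTCCCCgccaatgctgta
*Rpl38*, chr11:114668568-114668597, plus strand: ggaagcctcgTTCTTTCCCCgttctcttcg
*Rps7*, chr12:28635910-28635939, minus strand: tgtccccaCCTCTTTTCTTCCgccacccgg
*Rps15a*, chr7:118116143-118116172, minus strand: gcccggcccaCTCTCTTTCTgccatcttcc
The run was 18 bases in *Rpl35*, 13 in *Rps7*, 10 in *Rpl38* and *Rps15a*, and 6 in *Rpl24*, the shortest of the 5. Counted from the start, its first base was at −7 in *Rpl35*, −2 in *Rpl38*, −15 in *Rps15a*, −36 in *Rpl24* and 23 in *Rps7*. The printed bases of *Rpl24* lie before the start and those of *Rps7* after it, so neither run is at the annotated start. Promoter windows of 300 bases, 250 before and 50 after the start, were held for 49 of the 60 members, of which the 48 kept by the filter had 57 windows. A run of at least 8 pyrimidines near the start was found in 77.2% of the members' windows and in 35.7% of all 32851 windows. The letters CCGGAAG, on either strand, were in 42.1% against 8.86%, and AAGATGG in 12.3% against 6.34%. These are matches of letters and were not compared with binding.

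The chips fell into 2 series of barcode numbers, called series A (3 chips) and series B (2 chips). All 6 compound mutant arrays were on 1 series B chip, and the other series B chip held 2 arrays of *Pax1 WT:+/EGFP* and 3 of *Pax1-/-*. Every *Pax1+/-* and EGFP(-) array was on series A chips. Of the probes, 42.2 to 44.23% were detected on series B arrays and 45.44 to 50.64% on series A arrays, and the members' median background-subtracted intensity was 1098.3 to 1744.7 against 2037.7 to 3002.3. Between the compound mutants and the other genotypes, chip and genotype cannot be told apart. The targeted gene *Pax1* was at a log2 level of 4.706 to 8.565 in EGFP(-) cells, 11.03 to 11.53 in *Pax1 WT:+/EGFP* cells and 10.54 to 11.13 in the 4 mutant groups. *Pax9* was at 4.732 and 4.771 in *Pax1-/-Pax9-/-* replicates 2 and 3, but at 6.849 in the library labelled replicate 1, within the 6.014 to 6.961 of *Pax1 WT:+/EGFP* cells. Where the probes of both genes lie against the disrupted exons is not stated in the sources, so neither level checks a genotype. Markers of sclerotome and disc anlage were higher in *Pax1 WT:+/EGFP* than in EGFP(-) cells for 12 of 15 genes, and their summed level was 8190 to 9940 against 1560 to 3100.

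Across the 24 replicates the median spread of the members was below that of all genes, which were not matched to them for intensity. The SD of a member's log2 level had a median of 0.250, from 0.077 to 0.687, against a median of 0.320 over all genes. The steadiest were *Rps6* (SD 0.077), the substrate of S6 kinase, *Rps12* (0.090) and *Rps7* (0.092). The most variable were *Rpl35* (0.69), *Rpl21* (0.65), *Rps13* (0.53) and *Rpl24* (0.53). Each member's difference from its own mean over all arrays was taken, and the median over the 59 members was computed for each array. It was −0.227 to −0.088 on the chip with the compound mutants and −0.159 to 0.102 on the other series B chip, whereas series A arrays had −0.063 to 0.208. By genotype the mean of the replicate medians was −0.197 ± 0.010 (SD, n = 3) in *Pax1-/-Pax9+/-*, −0.151 ± 0.062 (SD, n = 3) in *Pax1-/-Pax9-/-*, 0.015 ± 0.105 (SD, n = 5) in *Pax1 WT:+/EGFP*, 0.137 ± 0.031 (SD, n = 5) in *Pax1+/-*, 0.069 ± 0.067 (SD, n = 5) in *Pax1-/-* and 0.053 ± 0.104 (SD, n = 3) in EGFP(-) cells.

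**Figure D1:**
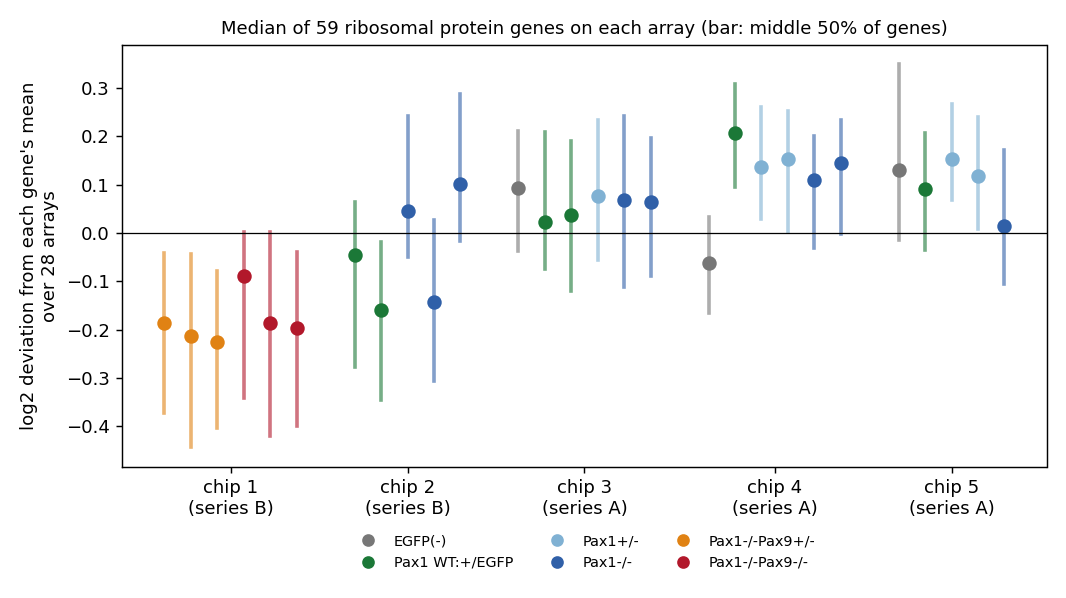
Median over the 59 members of the log2 difference from each gene's mean over 28 arrays (vertical axis, log2), 1 point per array, arranged by chip and coloured by group, with bars for the middle 50% of the members. The 6 compound mutant arrays lie between −0.227 and −0.088, and 3 arrays of the other series B chip are below 0 as well.

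To ask whether ribosomal protein transcripts mark the sorted population, *Pax1 WT:+/EGFP* cells were compared with EGFP(-) cells. None of the 59 members was called lower or higher at an adjusted p under 0.05 (limma, Benjamini-Hochberg over 13373 genes), while 10.7% of all genes were called lower and 9.83% higher. At an unadjusted p under 0.05 there were 4 members, and 31.9% of all genes. The members' median difference was −0.06 (log2) and that of all genes was 0.06. The same cells differed widely in markers of other cell types: 10 of 11 erythroid, 16 of 16 macrophage and granulocyte, 15 of 18 neuronal and 13 of 16 endothelial genes were lower in EGFP(+) cells. Summed erythroid levels were 30300 to 37400 in EGFP(-) and 636 to 6460 in *Pax1 WT:+/EGFP* cells, and their part in the members' values was not tested. In bulk RNA of sorted cells, fewer cells of a type and less RNA per cell cannot be told apart.

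*Rpl22*, a large subunit protein whose loss in mice affects T cells, had the highest difference of the members in *Pax1 WT:+/EGFP* against EGFP(-) cells. Its log2 level was 10.39, 11.06 and 10.93 in EGFP(-) replicates, 11.32, 11.12, 11.16, 11.28 and 10.87 in *Pax1 WT:+/EGFP*, 11.20, 11.06, 11.23, 11.25 and 11.37 in *Pax1+/-*, and 11.20, 11.35, 11.28, 11.35 and 11.41 in *Pax1-/-* replicates. EGFP(-) replicate 1 was the lowest of these, and all *Pax1-/-* replicates lay above the EGFP(-) range. Such a gap in this direction was found for 1 of the 59 members and 13.7% of all genes. *Rpl22* was called higher in *Pax1+/-* (0.43, SE 0.14, adjusted p = 0.0374) and in *Pax1-/-* (0.52, SE 0.14, adjusted p = 0.0130) against EGFP(-) cells, and was not called in *Pax1 WT:+/EGFP* (0.36, SE 0.14, adjusted p = 0.0880). It was the 1 member called in *Pax1+/-*, where 10.9% of all genes were called lower and 11.4% higher. In *Pax1-/-* cells 2 members were called lower, against 10.2% of all genes, and 10.1% were called higher. *Rps15a* was lower by a log2 difference of −0.75 (SE 0.22, adjusted p = 0.0214). *Rpl39l*, a paralogue of *Rpl39* known from testis, differed by −0.92 (adjusted p = 0.0229), but its dim probe read 6.42, 4.768 and 5.083 in EGFP(-) and 4.427 to 4.627 in *Pax1-/-* replicates, so EGFP(-) replicate 1 alone stood far above.

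Loss of *Pax1* alone was compared next. In *Pax1+/-* against *Pax1 WT:+/EGFP* cells, no member was called, with 0.269% of all genes called lower and 0.262% higher. At an unadjusted p 1 member was lower and 10 were higher, against 5.95% and 7.90% of all genes. Of the 59 members 48 had a difference above 0 and 11 below, with a median of 0.13. Of all genes 48.4% were below 0, with a median of 0.01. The largest were *Rpl29* (0.68, adjusted p = 0.144), whose loss gives small mice, *Rpl35* (0.49, adjusted p = 0.287) and *Rps24* (0.39, adjusted p = 0.0897), and the lowest were *Rpl7a* (−0.28), *Rps25* (−0.25) and *Rps15a* (−0.21). With series A arrays alone the members' median was 0.0275, and on chip 4 it was −0.0610.

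In *Pax1-/-* against *Pax1 WT:+/EGFP* cells 1 member was called, *Rps15a*, a small subunit protein, where 0.112% of all genes were called lower and 0.157% higher. Its log2 level was 8.96, 9.143, 8.582, 8.638 and 9.067 in *Pax1 WT:+/EGFP* replicates 2, 3, 4, 5 and 7 and 7.994, 7.569, 8.298, 8.293 and 7.997 in *Pax1-/-* replicates 1 to 5. These 2 groups did not overlap, as was so for 2 of the 59 members and 0.725% of all genes in this direction. *Pax1+/-* replicates were at 8.628, 8.512, 8.82, 8.568 and 8.81, *Pax1-/-Pax9+/-* at 9.018, 8.999 and 8.749, *Pax1-/-Pax9-/-* at 8.895, 8.579 and 9.058, and EGFP(-) cells at 8.229, 8.689 and 9.409. *Pax1-/-* cells were thus low while both compound mutants, which also lack *Pax1*, were at the level of *Pax1 WT:+/EGFP* cells. The difference was −0.85 (SE 0.15, adjusted p = 0.0162), 1.80-fold lower, from 1 probe. The 2 arrays named *Pax1 WT:+/EGFP* replicate 5 read 9.278 and 7.999, on chip 4 alone the difference was 0.20, and without *Pax1-/-* replicate 5 the adjusted p was 0.0549. The other members had a range up to *Rpl29* (0.52, adjusted p = 0.381) and down to *Rps13* (−0.55, adjusted p = 0.428). The 2 probes of *Rps13* disagreed, at −1.25 and 0.15, and its value is their mean. The members' median was 0.06, and that of all genes was 0.01.

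The compound mutants were the groups in which most members were called. In *Pax1-/-Pax9+/-* cells, 12 of 59 members were lower and 0 higher than in *Pax1 WT:+/EGFP* cells, where 3.37% of all genes were called lower and 3.24% higher. In *Pax1-/-Pax9-/-* cells, compared with the same *Pax1 WT:+/EGFP* arrays, 11 were lower and 0 higher, against 4.86% and 4.51% of all genes. With a fold change of 1.5 in addition, the counts were 7 (2.28% of all genes) and 6 (3.62%). The median difference of the members was −0.18 and −0.14, with 51 and 46 of the 59 below 0 (51.3% and 49.97% of all genes), while the median of all genes was −0.01 and 0.00. On single probes the counts were 14 lower and 1 higher of 86, where 3.03% and 2.99% of all probes were called, and 13 lower, where 4.68% were called. These counts depended on single libraries and on the chips, as given below. Without the library labelled *Pax1-/-Pax9-/-* replicate 1, the 11 became 8.

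Of the large subunit, *Rpl35*, which lies near the exit of the nascent chain, had the lowest difference in both. Its log2 level was 11.38, 11.26, 11.54, 10.81 and 10.05 in *Pax1 WT:+/EGFP* replicates 2, 3, 4, 5 and 7, then 10.03, 9.83 and 9.86 in *Pax1-/-Pax9+/-* and 10.07, 9.77 and 9.98 in *Pax1-/-Pax9-/-* replicates. *Pax1 WT:+/EGFP* replicates 2, 3 and 4 were high, while replicate 7 lay among the mutants. The difference was −1.10 (SE 0.23, adjusted p = 0.0110, 2.15-fold lower) and −1.07 (SE 0.23, adjusted p = 0.00807, 2.10-fold lower). *Rpl24*, mutated in the Belly spot and tail mouse, was at 12.20, 12.25, 12.31, 11.72 and 11.07 in *Pax1 WT:+/EGFP*, 11.07, 10.93 and 10.91 in *Pax1-/-Pax9+/-* and 11.08, 11 and 11.04 in *Pax1-/-Pax9-/-* cells. Again replicate 7 was at the level of the mutants. It differed by −0.94 (SE 0.21, adjusted p = 0.0129) and −0.87 (SE 0.21, adjusted p = 0.0133).

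*Rpl30* fell in both compound mutants, by 0.69 (adjusted p = 0.0391) and by 0.65 (adjusted p = 0.0394), and its *Pax1 WT:+/EGFP* replicates, at 8.805, 8.244, 8.189, 8.682 and 7.985, were all above the mutant range of 7.541 to 7.948. In *Pax1-/-Pax9+/-* cells groups did not overlap in this direction for 11 of the 59 members and 6.00% of all genes. In *Pax1-/-Pax9-/-* cells this was so for 9 members and 6.66% of all genes. A further 3 large subunit genes were called in *Pax1-/-Pax9+/-* cells, *Rpl19* (−0.81, adjusted p = 0.0133), *Rpl3* (−0.61, adjusted p = 0.0292), a protein of the catalytic centre, and *Rpl10a* (−0.41, adjusted p = 0.0359). In *Pax1-/-Pax9-/-* cells their values were −0.52, −0.45 and −0.33, with adjusted p of 0.0694, 0.0779 and 0.0725. *Rpl26*, a human Diamond-Blackfan anaemia gene, was called in *Pax1-/-Pax9-/-* (−0.54, adjusted p = 0.04996) and was at −0.46 in *Pax1-/-Pax9+/-* cells (adjusted p = 0.106). A call in 1 compound mutant without a call in the other is no difference between them, which is tested below.

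Of the small subunit, *Rps19*, the most often mutated gene of Diamond-Blackfan anaemia, was at 12.503, 12.566, 12.654, 12.368 and 11.996 in *Pax1 WT:+/EGFP*, 11.977, 11.823 and 11.935 in *Pax1-/-Pax9+/-* and 11.942, 11.894 and 11.762 in *Pax1-/-Pax9-/-* replicates. All 6 mutant replicates were below all 5 of *Pax1 WT:+/EGFP*, the nearest being replicate 7. Groups did not overlap in this direction for 6.00% of all genes in *Pax1-/-Pax9+/-* and 6.66% in *Pax1-/-Pax9-/-* cells. The difference of *Rps19* was −0.51 (SE 0.12, adjusted p = 0.0203) and −0.55 (adjusted p = 0.00866). *Rps14*, lost in the human 5q- syndrome, fell by 0.71 (adjusted p = 0.0144) and by 0.62 (adjusted p = 0.0203). *Rps4l* (−0.62 and −0.65), *Rps3* (−0.49 and −0.49), *Rps4x* (−0.45 and −0.40) and *Rps16* (−0.39 and −0.45) were called lower in both, with adjusted p from 0.0210 to 0.0492. *Rps3a1* was called in *Pax1-/-Pax9-/-* cells (−0.64, adjusted p = 0.04996) and was at −0.58 in *Pax1-/-Pax9+/-* cells (adjusted p = 0.0844). The genes called lower in at least 1 compound mutant were 14, 7 of each subunit.

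**Figure D2:**
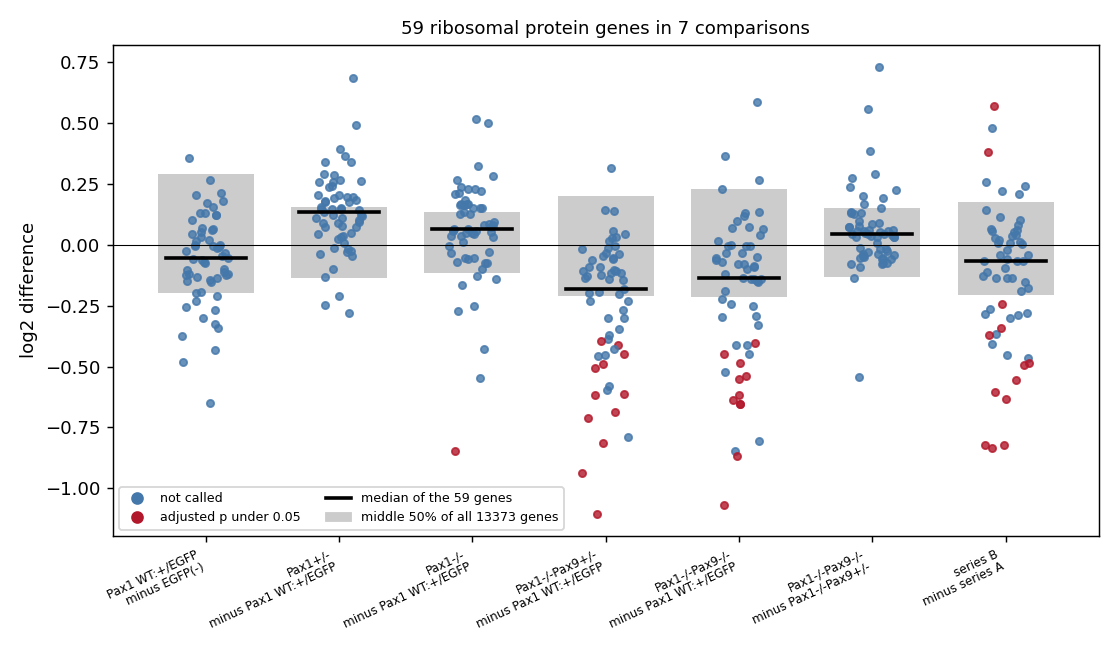
Log2 difference of each of the 59 members (points) in 7 comparisons, red where the adjusted p was under 0.05, with a line at the members' median and a grey box for the middle 50% of all 13373 genes. Relative to *Pax1 WT:+/EGFP* cells, 12 members are called lower in *Pax1-/-Pax9+/-*, 11 in *Pax1-/-Pax9-/-* and 1 in *Pax1-/-* cells.

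Of the 22 kept members with a listed role, 5 were called lower in a compound mutant (*Rpl24*, *Rpl26*, *Rpl3*, *Rps14* and *Rps19*), or 22.7%, against 14 of all 59 members, or 23.7%. The others were not called. *Rpl38*, whose loss in the Tail short mouse changes the identity of vertebrae, was at 9.395, 9.455, 9.335, 9.2 and 8.942 in *Pax1 WT:+/EGFP*, 8.934, 8.643 and 9.174 in *Pax1-/-Pax9+/-* and 8.931, 8.988 and 8.996 in *Pax1-/-Pax9-/-* replicates, with replicate 7 within the mutant range. The difference was −0.35 (adjusted p = 0.106) and −0.29 (adjusted p = 0.148). *Rps7*, mutated in mice with malformed vertebrae, was at 11.26, 11.17, 11.31, 11.25 and 11.31, then 11.35, 11.06 and 11.31, then 11.44, 11.20 and 11.19, and these ranges overlapped throughout. Its difference was −0.02 and 0.02. Of the stalk proteins, which recruit elongation factors, *Rplp0* was at −0.19 and 0.36, *Rplp1* at −0.11 and −0.15 and *Rplp2* at −0.14 and 0.10, none called.

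Of other members known from human anaemia or mouse mutants, the difference in *Pax1-/-Pax9+/-* and then *Pax1-/-Pax9-/-* cells was −0.06 and 0.13 for *Rps20*, −0.06 and −0.14 for *Rps6*, 0.06 and 0.00 for *Rps24*, −0.02 and −0.07 for *Rps26*, −0.15 and −0.09 for *Rps10*, −0.01 and 0.07 for *Rpl27a*, 0.01 and 0.07 for *Rpl22*, and −0.10 and −0.14 for *Rpl29*. None of these genes was called. The values of *Rps24* and *Rpl27a* are means of 4 probes each, and these probes disagreed. The *Rps24* probe with the highest intensity was called lower in *Pax1-/-Pax9+/-* cells, as given below. *Rpsa*, known from human asplenia, had the highest difference in both (0.31 and 0.59, adjusted p = 0.461 and 0.117), from a dim probe detected on 17 of 28 arrays. *Rps27l*, a target of p53, was at −0.12 and −0.25, the testis paralogue *Rpl39l* at −0.11 and −0.04, and its counterpart *Rpl39* at 0.14 and 0.07. None of these was called in either.

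Array by array, the same genes differed between the 2 series of chips within 1 genotype. For *Rpl35*, the *Pax1 WT:+/EGFP* arrays of series A read 11.38, 11.26, 11.54 and 11.51, and those of series B read 10.11 and 10.05. The *Pax1-/-* arrays of series A read 11.29 to 11.52, and those of series B read 11.36, 10.12 and 11.35 for replicates 2, 3 and 4. The *Pax1+/-* arrays were at 11.37 to 11.60 and the EGFP(-) arrays at 11.18 to 11.54, all on series A. Thus 3 series B arrays that carry no *Pax9* mutation were at the compound mutant range of 9.77 to 10.07 or just above it, and 2 others on the same chip were not. For *Rpl24*, series A *Pax1 WT:+/EGFP* arrays read 12.20, 12.25, 12.31 and 12.30 and series B arrays 11.14 and 11.07, with *Pax1-/-* replicate 3 at 11.26 and replicates 2 and 4 at 11.77 and 12 on the same chip. For *Rps14*, the series A arrays of *Pax1 WT:+/EGFP* read 11.70 to 11.87 and the series B arrays 11.02 and 10.91, with the mutants from 10.80 to 11.12.

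The 3 low arrays were *Pax1 WT:+/EGFP* replicates 5 and 7 and *Pax1-/-* replicate 3. Their median member intensities before normalization were 1339.5, 1098.3 and 1236.3, against 1686.7 and 1744.7 on the others of that chip. These are the same probes before normalization and not a separate trait of the arrays. The upper quartile of their intensities over all probes, 55.37, 54.68 and 57.98, lay between the 53.36 and 62.18 of the others. Their shares of detected probes, 42.38, 43.61 and 43.41%, lay on both sides of the 42.96 and 43.22% of the others. Quality measures of the single RNA samples were not analysed here, beyond a stated integrity number of at least 7, and their part in the result was not tested.

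**Figure D3:**
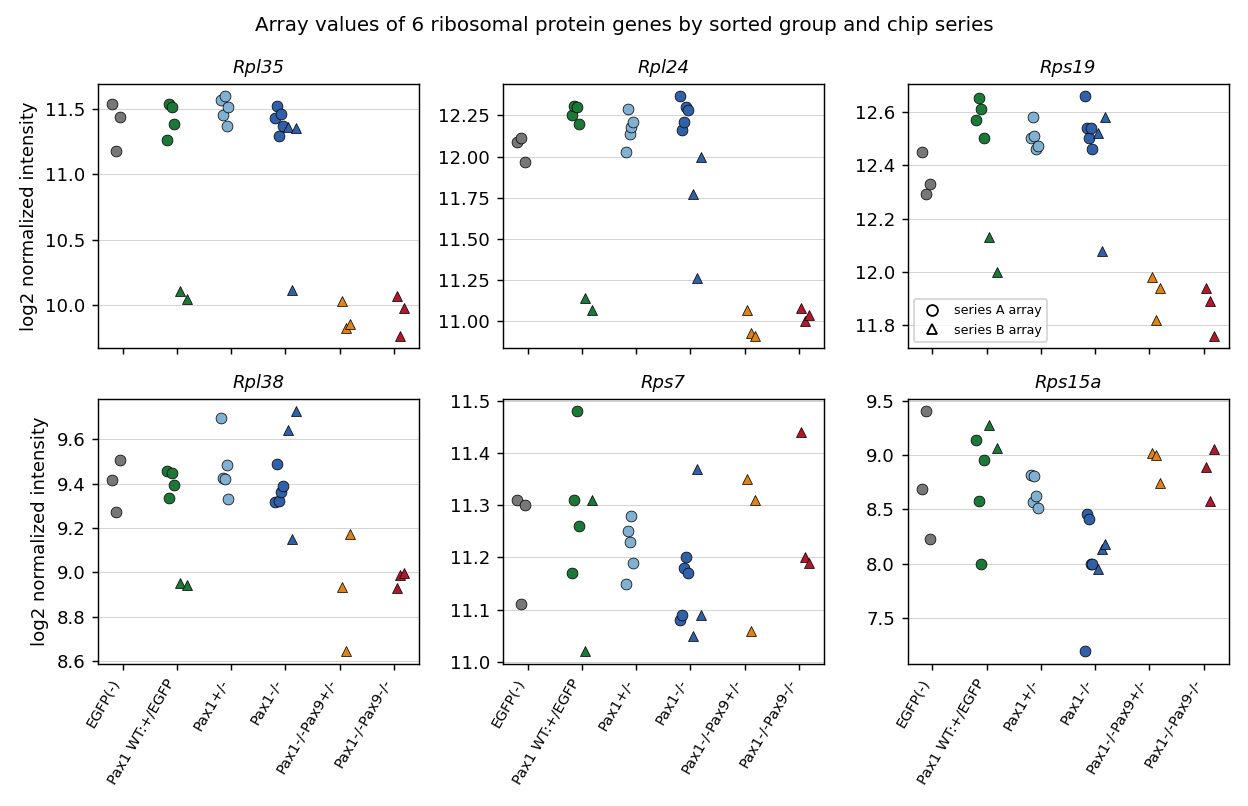
Log2 level of *Rpl35*, *Rpl24*, *Rps19*, *Rpl38*, *Rps7* and *Rps15a* on each of the 28 arrays (vertical axes), by group, with circles for series A and triangles for series B chips. The 2 *Pax1 WT:+/EGFP* triangles of *Rpl35*, at 10.11 and 10.05, lie at the level of the compound mutants, while those of *Rps7* do not stand apart.

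Of the 14 members called lower in a compound mutant, all 14 had every mutant array below every series A array of *Pax1 WT:+/EGFP*, as did 21 of the 59 members and 9.32% of all genes. The 14 were chosen as lower on these same arrays, so their count follows largely from that choice and adds no support. Every mutant array was below both series B arrays of *Pax1 WT:+/EGFP* in 3 of the 14 (*Rpl30*, *Rps16* and *Rps19*), in 8 of the 59 and in 6.08% of all genes. The 2 series B arrays were themselves below all series A arrays of the same genotype in 13 of the 14, in 23 of the 59 and in 16.9% of all genes. *Rpl30* was the exception of the 14, with 8.201 and 7.985 on series B and 8.189 to 9.163 on series A.

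Series B was compared with series A over the 14 arrays of *Pax1 WT:+/EGFP* and *Pax1-/-* cells, with genotype in the model and each array as its own sample. The 14 arrays carried 10 replicate names, since 4 names were on both series, so they may not be independent. There 11 members were lower and 2 higher, where 5.94% of all genes were lower and 7.60% higher. With the replicate name as a random block 11 were lower and 2 higher, against 7.02% and 8.54% of all genes. The lowest were *Rpl35* (−0.84, SE 0.20, adjusted p = 0.0146), *Rpl24* (−0.82, SE 0.13, adjusted p = 0.00101), *Rpl19* (−0.82, SE 0.13, adjusted p = 0.00109), *Rpl3* (−0.63, SE 0.11, adjusted p = 0.00266) and *Rpl26* (−0.60, SE 0.11, adjusted p = 0.00311). *Rps4l*, *Rpl32*, *Rps14*, *Rps3*, *Rps4x* and *Rpl23* were lower by 0.56 to 0.24. An *Rpl23* probe was the brightest of all probes on 27 of the 28 arrays, which holds its normalized value nearly fixed. *Rps25*, needed for translation from some internal entry sites, was higher on series B (0.57, SE 0.16, adjusted p = 0.0289), as was *Rpl34* (0.38, SE 0.11, adjusted p = 0.0412). With *Pax1 WT:+/EGFP* arrays alone 10 members were lower and 0 higher, against 1.85% and 2.23% of all genes. With *Pax1-/-* arrays alone 0 were lower and 1 was higher, against 0.120% and 1.28% of all genes. A test of whether the series differed by another amount in the 2 genotypes called 0 members (smallest adjusted p 0.571, *Rps4l*) and 1 of all 13373 genes. At an unadjusted p under 0.05 there were 14 members, a count given without the share of all genes.

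4 replicate names occurred on a chip of each series. Whether the same RNA was used is not stated in the labels. The members' median difference of series B minus series A was −0.27 for *Pax1 WT:+/EGFP* replicate 5, with 47 of 59 below 0, and −0.16 for *Pax1-/-* replicate 3, with 43 below 0. It was −0.01 and −0.03 for *Pax1-/-* replicates 2 and 4, with 30 and 31 below 0. Of all genes 50.6% and 49.8% were below 0 for the first 2 names, and 51.2% and 56.8% for *Pax1-/-* replicates 2 and 4. *Rpl35* was the lowest member in the first pair of names, at −1.41, and in the second, at −1.39, but not in the others, where *Rpl6* (−1.21) and *Rpl26* (−0.54) were. The *Rpl35* differences of the compound mutants, −1.10 and −1.07, were taken from a *Pax1 WT:+/EGFP* mean that includes series B arrays. Those values and the differences between arrays of 1 name have unlike references, so their sizes were not compared.

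With series B arrays alone, 3 of each compound mutant and 2 of *Pax1 WT:+/EGFP*, 0 members were called in either. Of all genes 0.00748% were lower and 0% higher in *Pax1-/-Pax9+/-*, and 0.284% and 0.374% in *Pax1-/-Pax9-/-* cells. The median of the members was −0.10 and −0.04, with 45 and 31 of 59 below 0, and the smallest adjusted p were 0.593 and 0.323. The median of all genes was −0.008 and −0.003, and the share of all genes below 0 is not given. *Rpl35* was at −0.17 and −0.14 (SE 0.31) and *Rpl24* at −0.14 and −0.07 (SE 0.19). *Rps19* was at −0.15 and −0.20 (SE 0.16), and *Rpl30* at −0.40 and −0.36 (SE 0.24). *Rps4l*, *Rpl3*, *Rps3a1* and *Rpl26* had values of 0.02 to 0.22, above 0 in both. With all replicates and the series as a block, 0 members were called as well, where 0.0374% of all genes were lower and 0.127% higher in *Pax1-/-Pax9+/-*, and 0.800% and 1.03% in *Pax1-/-Pax9-/-* cells. *Rpl35* was then at −0.51 (adjusted p = 0.545) and −0.48 (adjusted p = 0.395). The members' median was −0.155 and −0.115, with 9 and 5 lower at an unadjusted p under 0.05. The share of all genes at that unadjusted cut-off is not given, so these 2 counts do not show whether the members stand out. When the series B arrays of *Pax1 WT:+/EGFP* and *Pax1-/-* were left out instead, a choice made after seeing the data, 24 members were lower in *Pax1-/-Pax9+/-*, and 19 were lower and 1 higher in *Pax1-/-Pax9-/-* cells. With that choice 9.80% of all genes were lower and 9.73% higher in *Pax1-/-Pax9+/-*, and 10.7% and 10.9% in *Pax1-/-Pax9-/-* cells.

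**Figure D4:**
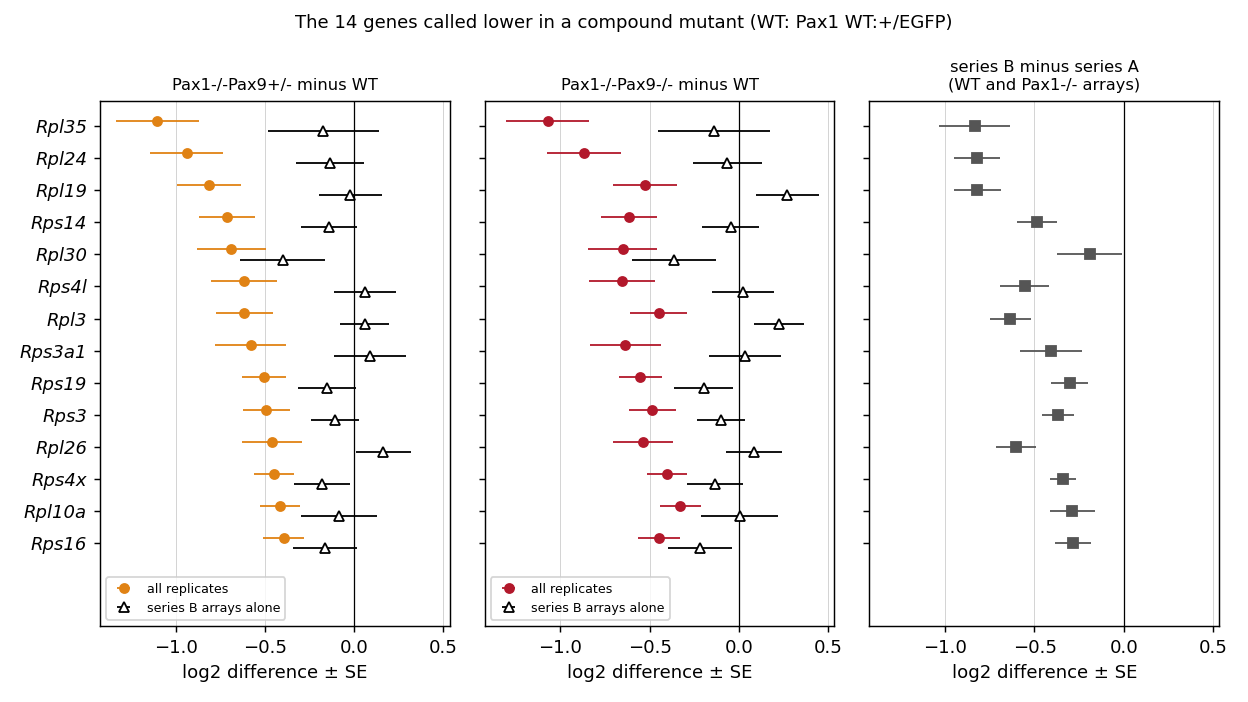
Log2 difference, with bars for its SE, of the 14 members called lower in a compound mutant, from all replicates, from series B arrays alone, and between series B and series A within *Pax1 WT:+/EGFP* and *Pax1-/-* arrays. *Rpl35* is at −1.10 and −1.07 with all replicates, at −0.17 and −0.14 with series B alone, and at −0.84 between the series.

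Single libraries also moved the counts. Without *Pax1 WT:+/EGFP* replicate 7 the members called lower were 19 in *Pax1-/-Pax9+/-* and 18 in *Pax1-/-Pax9-/-* cells, and without replicate 2, 3 or 4 they were 5, 4 and 4 in both. Without *Pax1-/-Pax9+/-* replicate 2 or 3 the first count was 0, and without *Pax1-/-Pax9-/-* replicate 2 or 3 the second was 3 and 1. Counts with a library left out, here and elsewhere, are given without the share of all genes. They do not show whether these changes were particular to the members.

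**Figure D5:**
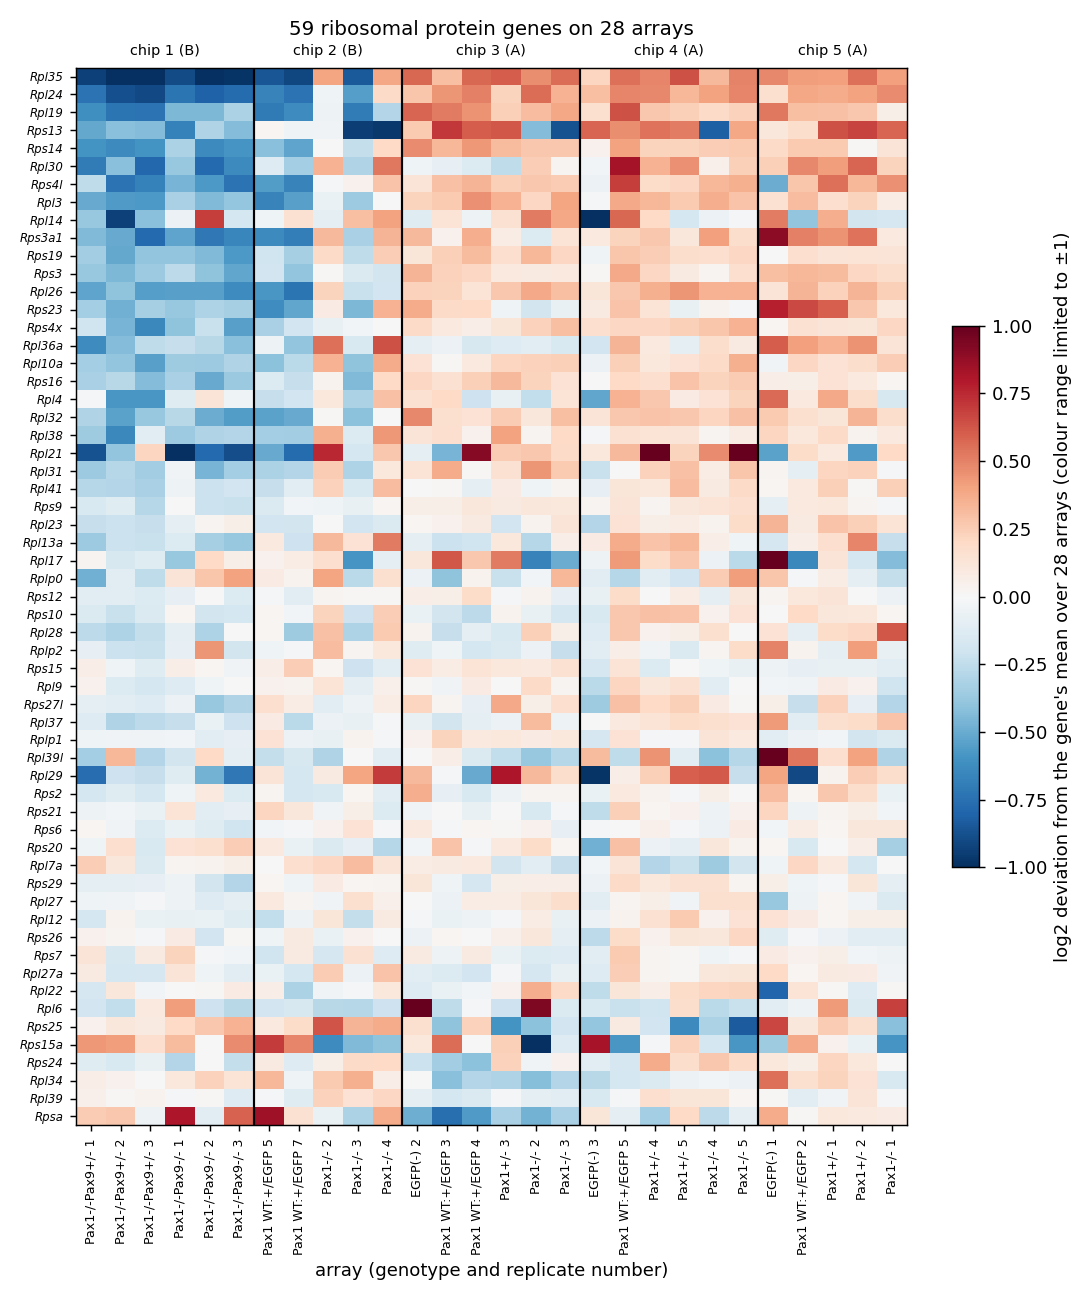
Log2 difference of the 59 members (rows) from each gene's mean over the 28 arrays (columns, by chip), with the colour limited to ±1. Rows are ordered by the difference of *Pax1-/-Pax9+/-* against *Pax1 WT:+/EGFP* cells. Low values of the upper rows, from *Rpl35* on, are seen on the 6 compound mutant arrays and on 3 of the 5 arrays of the other series B chip.

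The last copy of *Pax9* was addressed on 1 chip, by *Pax1-/-Pax9-/-* against *Pax1-/-Pax9+/-* cells, and there 0 members were called, with 0.187% of all genes lower and 0.127% higher. The members' median was 0.04, with 38 of 59 above 0 and 21 below, where 49.0% of all genes were below 0. At an unadjusted p 3 members were higher, where 4.46% of all genes were. *Rplp0*, the core of the stalk, was at 7.80, 8.16 and 8.02 in *Pax1-/-Pax9+/-* and 8.41, 8.56 and 8.68 in *Pax1-/-Pax9-/-* replicates, which did not overlap, as was so in this direction for 8 of the 59 members and 7.96% of all genes. Its difference was 0.56 (SE 0.16, adjusted p = 0.175). *Rpl14* was at 0.73 (SE 0.22, adjusted p = 0.229) and *Rpl4* at 0.38 (SE 0.17, adjusted p = 0.518). *Rpl35* and *Rpl24*, the lowest of the members against *Pax1 WT:+/EGFP* cells, had overlapping ranges in the 2 compound mutants. Without the library labelled *Pax1-/-Pax9-/-* replicate 1, 0 members were called and the median was −0.00101.

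Among genes with more than 1 kept probe, 18 in all, probes went opposite ways past a log2 difference of 0.5 in 3 of 162 checks. The 4 probes of *Rps24* had −0.59, −0.10, 0.34 and 0.58 in *Pax1-/-Pax9+/-* against *Pax1 WT:+/EGFP* cells, and its value of 0.06 is their mean. The 4 probes of *Rpl27a*, mutated in the Sooty foot ataxia mouse, had −0.62, 0.00, 0.01 and 0.57. In *Rps24* the probe with the highest intensity was the one at −0.59 (adjusted p = 0.0353). The 2 probes of *Rps3* were both below 0, at −0.37 and −0.61, and those of *Rpl30* at −0.45 and −0.92. Most ribosomal protein genes have many processed pseudogenes of near-identical sequence, and whether probes also bind their transcripts was not examined, so the level of a member may include them.

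Genes of the pathway outside the cytosolic ribosome were read from lists. Of all genes, 3.37% were called lower and 3.24% higher in *Pax1-/-Pax9+/-*, and 4.86% and 4.51% in *Pax1-/-Pax9-/-* cells. Between series B and series A these shares were 5.94% and 7.60%. Of 72 measured mitochondrial ribosomal proteins, 10 were lower and 0 higher in *Pax1-/-Pax9+/-*, and 11 lower and 0 higher in *Pax1-/-Pax9-/-* cells, with medians of −0.29 and −0.30. *Mrpl12* was at −1.03 (adjusted p = 0.00346) and −0.89 (adjusted p = 0.00325). Of 66 subunits of oxidative phosphorylation, 21 and 18 were lower and 0 and 1 higher, with medians of −0.28 and −0.22. Between series B and series A, 9 mitochondrial ribosomal proteins and 16 oxidative phosphorylation subunits were lower and 1 and 3 higher. With series B alone, 0 of either list were called in the compound mutants, and the medians were −0.08 and −0.09, and −0.11 and −0.05.

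Of 19 translation factors with TOP mRNAs, 3 were lower and 1 higher in *Pax1-/-Pax9+/-* and 2 lower in *Pax1-/-Pax9-/-* cells. *Eif3h*, an initiation factor subunit, was at −0.59 and −0.78, and *Pabpc1*, the poly(A) binding protein, at −0.50 and −0.60. Of 32 other translation factors 4 were lower in each, and of 69 genes of ribosome biogenesis 2 and 5 were lower and 1 and 2 higher. Of all genes 3.37% and 4.86% were lower and 3.24% and 4.51% higher in the same 2 comparisons. The lowest named was *Nhp2* of the box H/ACA particles, at −1.30 and −1.23, and at −0.92 between the series. Of the 4 measured other ribosome genes 2 were lower in each comparison, *Rps19bp1* (−1.35 and −1.54) and *Rpl36al* (−0.57 and −0.67), and both were also lower on series B (−1.14 and −0.52). Of 19 targets of p53, 0 were called in *Pax1-/-Pax9+/-*, and *Perp* was lower and *Rrm2b* higher in *Pax1-/-Pax9-/-* cells. With series B alone, 0 genes of these lists were called.

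Marker lists were counted in the same comparisons, where 3.37% and 3.24% of all genes were called lower and higher in *Pax1-/-Pax9+/-*, and 4.86% and 4.51% in *Pax1-/-Pax9-/-* cells. Of 15 sclerotome and disc anlage genes 0 were lower and 2 higher in *Pax1-/-Pax9+/-*, and 5 were lower and 2 higher in *Pax1-/-Pax9-/-* cells. Their summed level was 8880 to 9810 and 7160 to 7400 against 8190 to 9940 in *Pax1 WT:+/EGFP* cells, so the *Pax1-/-Pax9-/-* replicates lay below all others of the 3 groups. With series B alone 0 of them were called in *Pax1-/-Pax9+/-*, and 4 were lower in *Pax1-/-Pax9-/-* cells. Of 17 immediate early genes 3 and 4 were higher, and their summed level was 6570 to 7560 and 7890 to 9740 against 5760 to 6970 in *Pax1 WT:+/EGFP* cells. With series B alone 0 and 1 of them were called. Erythroid markers had 0 of 11 and 1 of 11 lower, with summed levels of 1350 to 6240 and 1180 to 1400 against 636 to 6460. Of 18 neuronal markers 0 were called in either, of 16 macrophage and granulocyte markers 1 was higher in each, of 16 endothelial markers 1 was higher in each and 1 lower in *Pax1-/-Pax9-/-*, and of 12 skeletal muscle markers 1 was lower in *Pax1-/-Pax9-/-* cells. With series B alone 2 endothelial markers and 1 skeletal muscle marker were higher in *Pax1-/-Pax9-/-* cells, 0 of either were called in *Pax1-/-Pax9+/-*, and 0 erythroid, neuronal, macrophage or granulocyte markers were called in either. Their part in the members' values was not tested.

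Over the 24 replicates, the correlation of a member with the median of the other members had a median Pearson r of 0.62, from −0.474 for *Rps15a* to 0.927 for *Rpl35*. It was above 0.5 for 38 members and below 0 for 8, among them *Rps15a*, *Rpl7a*, *Rpsa* and *Rps25*. Over all genes the median r with the members' median was 0.02. The points share chips, depth of signal and a common normalization, and these values are a description. The genes outside the group with the pattern most like the members' median were *Dctpp1*, *Uqcr10* and *Atp5j2* (each r = 0.960), *Eif3i* (0.957), *Atox1* (0.951), *Gemin7* and *Slirp* (each 0.945), *Phpt1* (0.943), *Psmb1* (0.942) and *Selenoh* (0.940). *Uqcr10* and *Atp5j2* encode subunits of the respiratory chain and of ATP synthase, and *Eif3i* a subunit of an initiation factor.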

How the data were processed

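One deposited table gives an intensity per probe and array, after background subtraction by the authors in BeadStudio but with no normalization between arrays. The detection p-value that the authors deposited with each intensity was used to find dim probes. A second deposited table, with log2 values that the authors had quantile normalized in GeneSpring GX, served as an alternative. Columns not used were 0. In GEO's platform annotation 34885 of 45281 probes have 1 gene symbol, 18 have several and 10378 have none, and only the first kind entered the gene values. All 60 members were found in RefSeq.

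Background was corrected by normexp (offset 16), followed by quantile normalization and log2 transformation (limma 3.58.1, statmod 1.5.0, R 4.3.3). Probes with a detection p-value under 0.05 on at least 3 arrays were kept, and kept probes were averaged per gene. Arrays that share genotype and replicate name were averaged to 24 replicates. The treatment text of the labels names GFP(+) for every sample, and titles were followed for the 3 EGFP(-) samples. Linear models (lmFit, eBayes) were fitted to the 5 EGFP(+) genotypes, to EGFP(-) cells with the 3 genotypes on intact *Pax9*, and to the 14 *Pax1 WT:+/EGFP* and *Pax1-/-* arrays by chip series. Called means a Benjamini-Hochberg adjusted p under 0.05 over 13373 genes. The fold change of 1.5 is the threshold of the methods. Arrays carry no read depth, so precision rests on how many there are. The procedure was tested on simulated data drawn independently, without effects of chip or series, so that test does not bear on such effects.

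Members, lists and alternatives were chosen with earlier results of these data known. Named were, for each comparison, up to 10 members of the smallest adjusted p, otherwise the 3 largest changes each way, members with a known role, members with opposing probes, the 10 most similar other genes, and up to 4 called genes of each list. Members named beyond this, such as *Rps25* between the series, were chosen after their values were seen. Alternatives were the background correction, centring, the authors' log2 table, probe filters, arrays not averaged, chips or series as a block or alone, the replicate number as a block, the methods' t-test, and each replicate left out. Ribosomal proteins that the annotation does not name, such as *Rpl5* and *Rpl11*, were not analysed here.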

Additional observations from a re-analysis of the deposited data

Results flagged for a closer look

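Among groups of 5 replicates, 111 sets of values (36 named genes and the members' median) were looked at for 1 replicate far from the others, and 9 were found, where chance gives about 1 in 20. In *Pax1 WT:+/EGFP* cells, *Rps25* was low in replicate 3 (10.28, others 10.78 to 10.91). *Rps4l* was low in replicate 7 (7.635, others 8.372 to 8.649). The members' median was low in replicate 7 as well (−0.168, others 0.038 to 0.096), which is the 1 *Pax1 WT:+/EGFP* replicate measured on a series B chip alone. In *Pax1-/-* cells, replicate 3 was low for *Rpl35* (10.82, others 11.32 to 11.47), *Rpl30* (8.192, others 8.548 to 8.621) and *Rpl10a* (11.58, others 11.91 to 12.02), and it is the mean of 1 array of each series. *Rps27l* was low in replicate 1 (9.667, others 9.931 to 10.04). In *Pax1+/-* cells, *Rpl30* was low in replicate 3 (8.07, others 8.672 to 8.913) and *Rplp2* was high in replicate 2 (8.498, others 7.931 to 8.041).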

How the results depend on the processing

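No member was called with chip series as a block or with series B alone in either compound mutant, and chip and *Pax9* genotype cannot be told apart. Arrays give no depth, dim probes such as that of *Rpsa* limit what can be seen, and 3 replicates a group limit the precision. Of the results on single genes, 296 kept their direction and side of the threshold under alternatives other than leaving out a replicate, 204 kept the direction alone and 6 changed direction. *Rps15a* in *Pax1-/-* cells became 0.20 on chip 4 alone. With series B alone, *Rpl3* became 0.0594 and *Rps4l* 0.0609 in *Pax1-/-Pax9+/-*, and *Rps4l* 0.0229, *Rpl26* 0.0852 and *Rps3a1* 0.0338 in *Pax1-/-Pax9-/-* cells. The cause was not tested.

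Against *Pax1 WT:+/EGFP* cells, 12 members were called in *Pax1-/-Pax9+/-* and 11 in *Pax1-/-Pax9-/-* cells. They became 5 and 6 with signals floored at 1, 3 and 4 with median centring, 1 and 3 with each array as a sample, 0 and 0 with the series as a fixed block, with the chip as a random block, with the compared groups alone, with the methods' t-test after Benjamini-Hochberg and with series B alone (medians −0.10 and −0.0423), and 24 and 20 with the series B arrays of the other genotypes left out, an alternative chosen after seeing the data. In *Pax1-/-* against *Pax1 WT:+/EGFP* cells the 1 call became 0 with the floor, centring (median 0.14), series A alone, series B alone (median 0.15), any chip alone (medians 0.15 on chip 2, −0.0820 on chip 4 and −0.0646 on chip 5), series B arrays left out, the compared groups alone and the t-test after adjustment. In *Pax1 WT:+/EGFP* against EGFP(-) cells the 0 calls became 1 with the series block, on chip 4 (median 0.26) and on chip 5, and 2 with the chip block, series A alone (median 0.0532) and eBayes with a trend and robust weights, and the median was −0.20 with centring. In *Pax1+/-* against *Pax1 WT:+/EGFP* cells centring gave 1 call and a median of 0.32, and the median was 0.0275 in series A alone and with series B arrays left out, 0.00688 on chip 3, −0.0610 on chip 4 and 0.0234 on chip 5. The unadjusted t-test of the methods gave 2 calls against EGFP(-), 7 in *Pax1+/-*, 8 in *Pax1-/-* and 7 between the compound mutants. The share of all genes by that test is not given, so these counts do not show whether the members stand out. By limma at an unadjusted p under 0.05 the share of all genes was 31.9%, 13.9%, 9.65% and 8.39%, in that order. Between the series, centring gave 34 calls and a median of −0.34, and *Pax1-/-* arrays alone gave 1 call. With centring, 5242 of all genes were called lower and 426 higher between the series. The median of all genes was then −0.30, so the 34 calls came with a shift of all genes. In *Pax1-/-Pax9+/-* cells 299 of all genes were lower and 128 higher with the floor, and 214 and 115 with centring. In *Pax1-/-Pax9-/-* cells they were 560 and 258, and 701 and 202. Counts given without a value for all genes do not show whether the members stand out.

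Median centring moved the median of all genes by over 0.1, to 0.13 in *Pax1+/-*, −0.11 in both compound mutants and −0.30 between the series. The share of all called genes that were lower went from 51.0% to 70.0% with the floor and 65.0% with centring in *Pax1-/-Pax9+/-*, from 51.9% to 68.5% and 77.6% in *Pax1-/-Pax9-/-*, from 50.7% to 61.5% and 19.7% in *Pax1+/-*, from 41.7% to 0% and 11.1% in *Pax1-/-* (27.7% with the authors' log2 values), and from 59.5% to 85.4% and 78.9% between the compound mutants. With centring it went from 52.1% to 64.1% against EGFP(-) and from 43.9% to 92.5% between the series.

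The replicate numbers share only a number (correlations of same-numbered samples −0.183 to 0.144). With the replicate number as a block, 17 members were called in each compound mutant and 0 in *Pax1-/-* cells, where *Rps15a* was at −0.81 (adjusted p = 0.0665). The share of all genes called is not given for this block or for single replicates left out. Leaving out 1 replicate at a time gave 0 to 19 calls in *Pax1-/-Pax9+/-*, 1 to 18 in *Pax1-/-Pax9-/-*, 0 to 1 in *Pax1-/-*, 0 to 2 against EGFP(-) and 7 to 14 between the series. The medians were −0.20 to −0.16, −0.16 to −0.11, 0.03 to 0.09, −0.12 to 0.01 and −0.11 to −0.06, 0.08 to 0.16 in *Pax1+/-* and −0.00101 to 0.07 between the compound mutants. The series comparison had 7 calls without *Pax1 WT:+/EGFP* replicate 5 and 8 without replicate 7, both on the series B chip.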

Other observations

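The 10 genes of the 14 called lower in a compound mutant that had a promoter window, 14 windows in all, held a pyrimidine run of at least 8 near the start in 7 windows and CCGGAAG in 4 (28.6%), and the 43 windows of the other kept members held them in 37 (86.0%) and 20 (46.5%). These are shares of windows, several of which belong to 1 gene, and they were not tested.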
